A study of Rattus norvegicus with 30 samples.

Results

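The measurements described here are those of 6 genes that carry glycerol into and through hepatocyte metabolism: the channels Aqp3, Aqp7 and Aqp9, glycerol kinase (Gk), and the cytosolic and mitochondrial glycerol 3-phosphate dehydrogenases Gpd1 and Gpd2. They were chosen by name, as the probe sets whose single gene symbol in the platform annotation is 1 of these 6. That gave 9 probe sets for 6 genes, out of 31099 probe sets and 14218 genes on the array. Gk, Gpd1 and Gpd2 have 2 probe sets each, and the aquaporins 1 each. The 6 genes were chosen with earlier results of these data known.

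The cells were cryopreserved primary hepatocytes of male Sprague Dawley rats, bought from a supplier, attached to collagen and covered with Matrigel. On day 3 of culture, wells were given WY-14643 (pirinixic acid), a compound that activates the nuclear receptor PPARα, at 8 µM or 200 µM, or the vehicle, labelled 1% DMSO. RNA was taken 24 h or 48 h later and read on 1 Affymetrix rat array per well, which gave 30 arrays in 6 groups of 5 wells. Age is not given in the sources used here, nor is the number of rats behind the wells. The wells are called independent cultures in the labels, so errors and p-values here measure the spread between wells. As the dosing stocks are described as made in 1% DMSO, it is not certain how much DMSO the treated wells held.

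Glycerol reaches the liver mainly from the breakdown of fat. It crosses the plasma membrane through aquaglyceroporins, the aquaporins that pass glycerol as well as water; Aqp9 is the main one of the hepatocyte, Aqp7 is best known as the glycerol exit of the adipocyte, and Aqp3 from epidermis and kidney collecting duct. Inside the cell Gk phosphorylates glycerol to glycerol 3-phosphate, the backbone of triglycerides and phospholipids. Gpd1 interconverts glycerol 3-phosphate and dihydroxyacetone phosphate with NAD in the cytosol, and Gpd2, in the inner mitochondrial membrane, oxidises glycerol 3-phosphate and passes the electrons to the respiratory chain. Together Gpd1 and Gpd2 form the glycerol phosphate shuttle. Several of these genes are known targets of PPARα in liver.

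Signals are the deposited MAS5 intensities, on a linear scale with a common level on every array. Changes are differences of log2(signal + 16) with their standard error (SE) from 1 limma fit of all 30 arrays, and a gene is said to have risen or fallen where the Benjamini-Hochberg adjusted p over 11545 genes was under 0.05. Those 11545 genes had a signal above 281 in at least 5 arrays. All 6 genes were among them. Aqp3 was above that level in 0 of 10 vehicle wells and in all 20 treated wells, so it was kept through the groups in which it is high, and counts are also given without it. The other 5 were above it in all 30 wells.

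Promoter sequences from RefSeq, build GRCr8, were matched by symbol for 4 of the 6 genes, Aqp3, Aqp9, Gk and Gpd2. The stretches below are the 250 bases before the annotated start of the first 3, on the minus strands of chr5:61040684-61040933, chr8:80718189-80718438 and chrX:54189732-54189981, and of Gpd2, on the plus strand of chr3:62211403-62211652. They are shown to set the promoters of 3 genes that rose beside that of Aqp9, the gene that fell. They are written 5′ to 3′ along the gene, with GGGCGG (or CCGCCC, the same letters on the other strand) and TATAAA in capitals.
Aqp3: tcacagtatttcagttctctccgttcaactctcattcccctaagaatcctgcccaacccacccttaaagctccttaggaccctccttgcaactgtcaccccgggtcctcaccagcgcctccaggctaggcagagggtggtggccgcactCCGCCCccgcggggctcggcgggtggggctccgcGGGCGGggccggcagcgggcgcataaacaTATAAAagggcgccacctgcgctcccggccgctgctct
Aqp9: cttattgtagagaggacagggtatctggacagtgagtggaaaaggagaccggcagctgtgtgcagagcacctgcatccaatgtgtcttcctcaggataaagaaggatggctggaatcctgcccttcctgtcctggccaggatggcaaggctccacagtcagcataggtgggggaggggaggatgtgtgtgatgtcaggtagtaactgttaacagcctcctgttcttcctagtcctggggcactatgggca
Gk: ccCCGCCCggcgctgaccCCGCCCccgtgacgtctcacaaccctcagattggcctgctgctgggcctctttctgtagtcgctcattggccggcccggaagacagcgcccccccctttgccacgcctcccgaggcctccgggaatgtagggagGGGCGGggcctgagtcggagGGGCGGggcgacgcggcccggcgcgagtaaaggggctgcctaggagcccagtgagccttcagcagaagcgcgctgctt
Gpd2: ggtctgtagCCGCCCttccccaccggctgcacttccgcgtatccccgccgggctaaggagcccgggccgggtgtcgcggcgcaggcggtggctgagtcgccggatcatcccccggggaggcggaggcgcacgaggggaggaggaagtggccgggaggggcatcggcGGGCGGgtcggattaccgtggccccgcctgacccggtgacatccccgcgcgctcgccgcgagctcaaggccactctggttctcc

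The element read by PPARα with its partner RXR is a direct repeat of AGGTCA with 1 base between the copies. It was searched on both strands over the 250 bases before and 50 after each start, exactly and with any base allowed in place of each T. None of the 4 windows held either form, and 0.0538% and 0.415% of all 33469 rat promoter windows did. A single AGGTCA, present in 16.2% of all windows and contained in the exact repeat, was also in none of the 4. This says only that those letters are not in these windows. GGGCGG was in the windows of Aqp3, Gk and Gpd2 and not in that of Aqp9, against 33.1% of all windows. Its copies in Aqp3 begin at positions -101 and -67 from the start, and TATAAA, found in 14.2% of all windows, begins there at -38. The GC content was 67.3% in Aqp3, 72.0% in Gk and in Gpd2, and 53.3% in Aqp9, with a median of 51.7% over all windows. Every motif searched other than the direct repeat was chosen after the sequences were seen.

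Median signals per array were 385 to 439 on 29 of the 30 arrays. The array of replicate 4 of the 48 h vehicle group stood apart, with a median of 765, 73.9% of probe sets above the filter level against 57.9% to 61.2%, and a median correlation with its own group of 0.896 against 0.973 to 0.980. It enters the spread of every contrast. Values without it are given beside results whose call it changes, and beside some whose size it moves. The 3′ to 5′ ratio of β-actin was 2.86 ± 0.278 (SD, n = 5) in 24 h vehicle wells and 3.10 ± 0.214 and 3.31 ± 0.169 at 8 and 200 µM. At 48 h it was 2.61 ± 0.313, 3.26 ± 0.417 and 3.10 ± 0.201. The ratio of GAPDH was lower in the treated groups, at 1.19, 1.14 and 1.16 for vehicle, 8 and 200 µM at 24 h. At 48 h the GAPDH ratio was 1.18, 1.15 and 1.15. That of hexokinase was 0.17, 0.31 and 0.20, then 0.21, 0.22 and 0.13. The lowest adjusted p over 12 two-sided exact permutation tests was 0.114, and the part of these ratios in the results was not tested. Of 8 measured hepatocyte markers, 3, 2, 4 and 4 fell in the contrasts of 8 and 200 µM against vehicle at 24 h and then at 48 h, and 0 rose. Without the array that stood apart 3, 2, 5 and 5 fell. Of 10 measured reference targets of PPARα, all 10 rose in each of the 4 contrasts.

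All 6 genes passed the test at both doses and both times, 5 of them higher and 1, Aqp9, lower than vehicle. The share of all genes that passed was 24.9% at 8 µM and 24.7% at 200 µM after 24 h, and 35.6% and 33.8% after 48 h. Genes that rose were 11.1%, 11.6%, 16.7% and 16.8% of all, in the same order, and genes that fell 13.8%, 13.1%, 18.9% and 17.1%. Without Aqp3, 4 of 5 rose and 1 fell in each contrast. As the genes were chosen with earlier results of these data known, the shares of all genes give a scale and not a test. In none of these 24 comparisons did a treated well overlap the vehicle wells of its time. How many of all genes were separated in this way was not counted. In wells of mixed cells, more RNA per cell and more cells of the type that holds it cannot be told apart.

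Some markers of other cell types passed as well. Of 27 measured markers of 7 other cell types, 3, 2, 3 and 1 rose and 2, 4, 4 and 7 fell in the 4 contrasts (3, 2, 3 and 1 and 2, 5, 3 and 6 without the array that stood apart). Of all genes, 11.1%, 11.6%, 16.7% and 16.8% rose and 13.8%, 13.1%, 18.9% and 17.1% fell. Acta2, the smooth muscle actin of activated stellate cells, fell by 0.53, 1.24, 0.48 and 0.95 on the log2 scale. Of the 6 stellate cell and fibroblast markers kept, 1, 1, 2 and 3 fell and 0 rose (1, 1, 2 and 1 fell without the array that stood apart). Reln, another of them and named with its values known, was at 0.32, 0.23, -0.15 and -0.25 and did not pass (lowest adjusted p = 0.352). Krt19, a keratin of bile duct cells, was at -1.72, -0.99, -2.55 and -1.89 (adjusted p = 0.169 for the second, at most 0.00968 for the others). Epcam, the other bile duct marker kept, was at -0.14, -0.34, -0.01 and -0.20 and passed in the second only (adjusted p = 0.00134). At 200 µM and 48 h its adjusted p was 0.0551, and 5.82e-05 without the array that stood apart. Lyve1 of sinusoidal endothelium fell by 0.53 and 1.07 at 200 µM and by 0.49 at 8 µM and 48 h (adjusted p = 0.0335, and 0.128 without that array). Stab2, also of endothelium and named with its values known, was at 0.49 to 1.07 and did not pass (lowest adjusted p = 0.184). C1qa of macrophages fell by 0.59 at 200 µM and 48 h. Cd68, also of macrophages, fell at 200 µM and 24 h (-0.44, adjusted p = 0.028) and rose at 8 µM and 48 h (0.42, adjusted p = 0.0293). Hbb, a haemoglobin chain, rose at 24 h by 1.14 and 1.17, and at 48 h by 0.82 at 200 µM (adjusted p = 0.0387, and 0.135 without that array). The other red blood cell markers measured, Alas2 and Slc4a1, likewise named with their values known, did not pass in any contrast. Their part in the results for the 6 genes was not tested.

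**Figure D1:**
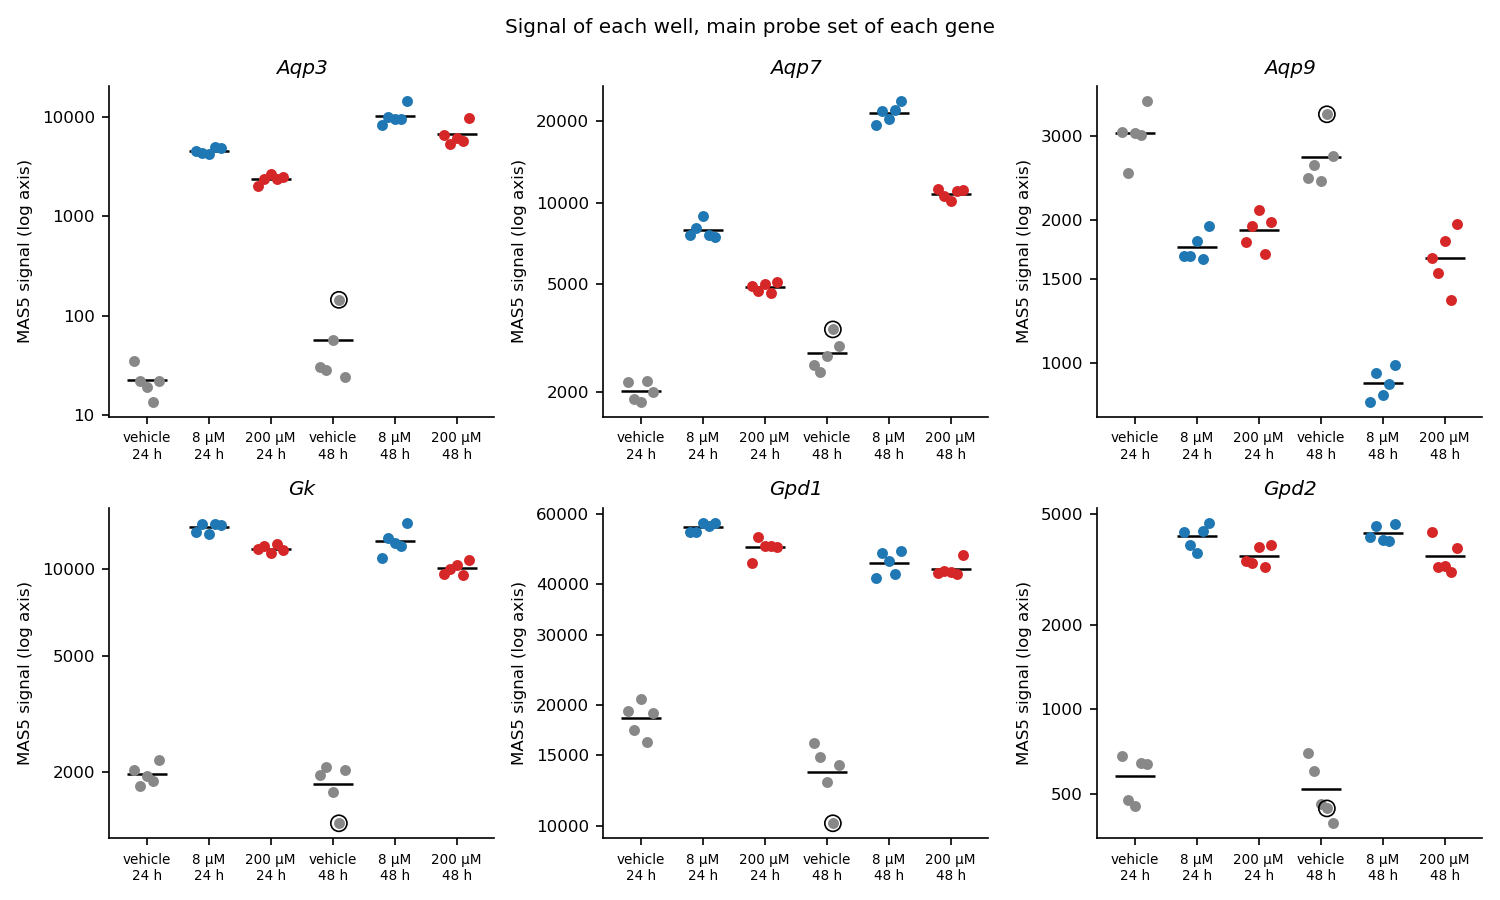
Signal of the main probe set of each gene in each of the 30 wells, on log axes that differ between panels; points are wells, bars are means of 5, and the ringed point is replicate 4 of the 48 h vehicle group. In the panels of Aqp3, Aqp7, Gk, Gpd1 and Gpd2 every treated well lies above the vehicle wells of its time, and in that of Aqp9 every one lies below.

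Aqp3, the channel that passes water and glycerol in skin and kidney, had the largest change. Its signals in 24 h vehicle wells were 35.4, 21.9, 19.2, 13.6 and 22.2, which put it between percentiles 2.39 and 8.93 of all probe sets on those arrays. At 8 µM they were 4481, 4311, 4183, 4997 and 4859, between percentiles 89.1 and 90.5. At 200 µM they were 1995, 2387, 2640.0, 2375 and 2489, so that every well of the higher dose lay under every well of the lower one. After 48 h the vehicle wells read 30.3, 28.1, 56.9, 144 and 24.4, with the highest value on the array that stood apart. The 8 µM wells read 8223, 9816, 9410.3, 9469 and 14341, and the 200 µM wells 6472, 5311, 6043, 5722 and 9639. Both doses were above their own 24 h wells throughout, and at 48 h 1 well of the higher dose, replicate 5, reached into the range of the lower.

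Aqp3 rose by 6.92 ± 0.23 (SE) at 8 µM and 24 h (adjusted p = 6.73e-22) and by 5.98 ± 0.23 at 200 µM (adjusted p = 4.27e-20). At 48 h it rose by 7.33 and 6.70 (adjusted p = 8.31e-23 and 1.33e-21), and by 7.67 and 7.04 without the array that stood apart. As its vehicle signals are near the floor of the array, the size of the change depends on the constant added before the logarithm: at 8 µM and 24 h it was 7.67 with a constant of 1 and 5.75 with 64. With the filter level of 281 put in place of the vehicle signals, the mean signal was at least 16.2-fold higher at 8 µM and 8.45-fold at 200 µM after 24 h, and at least 36.4-fold and 23.6-fold after 48 h. Of 5 keratinocyte markers, Krt14 (named after its value was seen) was below the filter. Of the other 4, 0 rose, and Tp63, a transcription factor of epidermis, fell at 200 µM and 48 h (-1.33, adjusted p = 0.0433). Without the array that stood apart Tp63 was at -1.02 (adjusted p = 0.135), and Krt10, also named after its value was seen, rose by 0.38 (adjusted p = 0.0163). The summed signal of the 5 was 1362 to 1805 in 24 h vehicle wells, 1536 to 1916 at 8 µM and 1425 to 1769 at 200 µM. At 48 h it was 1410 to 4011, 1282 to 1729 and 1258 to 1692, where 4011 was the array that stood apart and the other vehicle wells reached 1770.1.

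Aqp7, the adipocyte glycerol channel, rose at both doses and went on rising between 24 h and 48 h. The 24 h vehicle wells had signals of 2173, 1885, 1841, 2199 and 2002. Wells at 8 µM had 7599.7, 8021, 8883, 7599 and 7492, and the 200 µM wells 4927, 4698, 5006, 4633 and 5093. At this time the 3 groups were separate, with the lower dose highest. The 48 h vehicle wells had 2521, 2374, 2712, 3403 and 2954. Those at 8 µM had 19338, 21784, 20345, 21911 and 23684, and those at 200 µM 11175, 10546, 10122, 11001 and 11090. The order of the groups was the same as at 24 h, again with no overlap.

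The rise of Aqp7 was 1.96 ± 0.07 at 8 µM and 24 h (adjusted p = 1.39e-20) and 1.27 ± 0.07 at 200 µM (adjusted p = 2.24e-15). At 48 h it was 2.94 ± 0.07 and 1.95 ± 0.07 (adjusted p = 1.93e-25 and 1.48e-20). Of 5 adipocyte markers, Adipoq and Lep, the adipokines adiponectin and leptin, were below the filter. The lipid droplet coat gene Plin1 was measured and did not pass (-0.03 to -0.78, lowest adjusted p = 0.0714). These 3 are named after their values were seen. Cidec, which enlarges lipid droplets, rose by 0.93 and 0.42 at 24 h and by 0.46 at 8 µM and 48 h (0.22 at 200 µM, adjusted p = 0.114). Cfd, adipsin, rose at 8 µM by 0.94 and 2.08, with 0.15 and 0.38 at 200 µM (adjusted p = 0.74 and 0.233). The summed signal of the 5 was 3569 to 5347, 7623 to 8475 and 5096 to 5994 in 24 h wells of vehicle, 8 µM and 200 µM. In 48 h wells it was 5476 to 6642, 8045 to 10348 and 5998 to 7695. Their part in the result was not tested.

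Aqp9, the hepatocyte's own glycerol channel, was the gene that fell. Its signals were 3053, 2506, 3044, 3018 and 3547 in 24 h vehicle wells. They were 1681, 1678, 1805, 1656 and 1941 at 8 µM, and 1799, 1943, 2094, 1694 and 1980.0 at 200 µM. The 2 doses overlapped each other and lay below vehicle. At 48 h the vehicle wells had 2449, 2606, 2414, 3327 and 2716. The 8 µM wells had 830.0, 953, 860 and 903 in replicates 1 to 4 and 994 in replicate 5, and the 200 µM wells had 1660.5, 1544, 1806.4, 1357 and 1957. Here the lower dose lay below the higher one in every well, and the higher dose overlapped its own range of 24 h.

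The fall of Aqp9 was -0.78 ± 0.10 at 8 µM and 24 h (adjusted p = 9.76e-08) and -0.66 ± 0.10 at 200 µM (adjusted p = 2.19e-06). At 48 h it was -1.55 ± 0.10 (adjusted p = 7.5e-15) and -0.69 ± 0.10 (adjusted p = 6.99e-07). Among the hepatocyte markers that fell, Tat, tyrosine aminotransferase, was there in each contrast, at -1.54, -0.76, -1.46 and -0.86, and Cps1, the first enzyme of the urea cycle, at -0.35, -0.33, -0.30 and -0.26. Fgb was at -0.30, -0.13, -1.12 and -0.55 (adjusted p = 0.231 for the second), and Serpina1 fell at 48 h by 0.23 and 0.29. Alb, Ttr, Apoa1 and Hnf4a, named with their values known, did not pass in any contrast (Alb at -0.08, -0.05, 0.06 and -0.08). Without the array that stood apart, Apoa1 fell at 200 µM and 48 h (-0.24, adjusted p = 0.0027) and Hnf4a at 8 µM and 48 h (-0.15, adjusted p = 0.0282). The summed signal of the 8 markers was 439838 to 520148 in 24 h vehicle wells, 394729 to 431105 at 8 µM and 403027 to 448105 at 200 µM. At 48 h it was 332308 to 481712, 332516 to 382836 and 326071 to 368978. The lowest vehicle value is that of the array that stood apart, and the other 4 vehicle wells began at 428458, above all treated wells. The part of these markers in the fall of Aqp9 was not tested.

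Gk, which commits glycerol to metabolism by phosphorylating it, was raised to a similar extent at both times. Vehicle wells at 24 h had signals of 2034, 1795, 1934, 1862 and 2206. With 8 µM they had 13441, 14313, 13204, 14274 and 14174, and the 200 µM wells 11678, 11938, 11335, 12129 and 11613. The groups were separate, with the lower dose highest. At 48 h the vehicle wells had 1957, 2083, 1710.4, 1332 and 2036, the lowest being the array that stood apart. The 8 µM wells had 10939, 12818, 12247, 11967 and 14432, and the 200 µM wells 9585, 9979, 10335, 9498 and 10743. The 2 doses did not overlap at this time either. The rise was 2.81 ± 0.08 and 2.57 ± 0.08 at 24 h (adjusted p = 2.52e-23 and 4.04e-22) and 2.78 and 2.47 at 48 h (adjusted p = 2.26e-23 and 6.63e-22).

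Gpd2, the mitochondrial arm of the shuttle, had signals of 683, 475, 452, 644 and 638 in 24 h vehicle wells. It had 4313, 3864, 3615, 4334 and 4650.2 at 8 µM, and 3394, 3325, 3807, 3232 and 3872 at 200 µM. The 2 doses overlapped. The 48 h vehicle wells had 697, 602, 461, 443 and 392. Treated wells had 4129, 4527, 4024, 4009 and 4613 at 8 µM, and 4301, 3237, 3251, 3089 and 3777 at 200 µM. The rise of Gpd2 was 2.82 ± 0.13 and 2.59 ± 0.13 at 24 h (adjusted p = 1.04e-18 and 1.45e-17), and 3.03 and 2.75 at 48 h (adjusted p = 8.79e-20 and 1.7e-18). By size its main probe set stood between ranks 22 and 24 of all genes in the 4 contrasts, and that of Gk between ranks 24 and 33.

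Gpd1, the cytosolic arm, was already among the brightest probe sets without the agonist. Its signals in 24 h vehicle wells were 19404, 17312, 20682, 16185 and 19140.2, between percentiles 97.0 and 97.7 of those arrays. They were 54111, 54107, 57017, 55874 and 57016.5 at 8 µM, and 45293, 52407, 49915, 49964 and 49687 at 200 µM. Every 8 µM well was above every 200 µM well. At 48 h the vehicle wells had 16119.9, 14902, 12898, 10169.9 and 14242, with the lowest value again on the array that stood apart. The 8 µM wells had 41514, 47944, 45779, 42461 and 48299, and the 200 µM wells 42586, 43283, 42959, 42404 and 47375. At this time the 2 doses overlapped. The rise was 1.59 ± 0.08 and 1.42 ± 0.08 at 24 h (adjusted p = 4.52e-17 and 1.38e-15) and 1.74 and 1.69 at 48 h (adjusted p = 2.77e-18 and 8.04e-18). In treated wells the signals lay between percentiles 99.1 and 99.5, and whether the scanner's range limited them was not tested.

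The second probe sets of Gk, Gpd1 and Gpd2 rose too, in a fit of 21282 probe sets of which 19.2%, 18.8%, 28.5% and 26.4% passed in the 4 contrasts against vehicle. That of Gk rose by less than its main probe set, by 2.27 and 1.98 at 24 h and by 1.90 and 1.29 at 48 h (SE 0.25, adjusted p = 1.45e-08, 2.62e-07, 3.33e-07 and 1.68e-04). That of Gpd2 also rose by less than its main probe set, by 1.91, 1.66, 2.21 and 2.18 (SE 0.15, adjusted p from 2.63e-12 to 4.57e-14 at 8 µM). The dimmer Gpd1 probe set rose by 2.06, 1.81, 2.51 and 2.49 (SE 0.36). Its 48 h vehicle signals were 1059, 1165, 1108, 95.3 and 1080.0, the value 95.3 being that of the array that stood apart. Without that array the 48 h rises were 1.84 and 1.83 (SE 0.14, adjusted p = 8.96e-13 and 1.31e-12). In 12 of 12 comparisons the treated wells of these probe sets lay above the vehicle wells, and the share of all probe sets that did so was not counted.

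**Figure D2:**
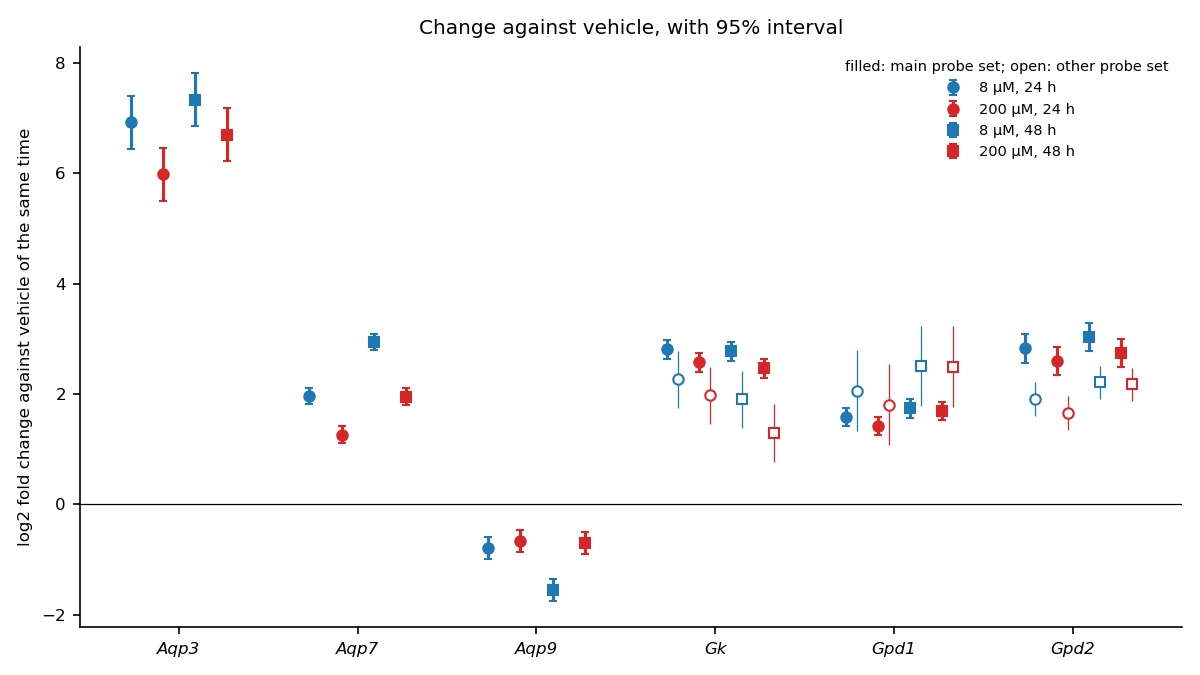
Log2 fold change of each gene against the vehicle of the same time, with its 95% interval from the fit; circles are 24 h, squares 48 h, blue 8 µM and red 200 µM, and open symbols are the second probe sets of Gk, Gpd1 and Gpd2. Aqp9 lies below 0 in all 4 contrasts and the other 5 genes above.

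For several of the genes 8 µM gave a larger change than 200 µM. At 24 h 2 of 6 genes differed between the doses, where 3.02% of all genes did: Aqp7 was lower at 200 µM by -0.70 ± 0.07 (adjusted p = 2.13e-07) and Aqp3 by -0.94 ± 0.23 (adjusted p = 0.0171). Without Aqp3 that is 1 of 5. At 48 h 3 of 6 differed (3 of 5 without Aqp3), where 4.79% of all genes did. Aqp7 was lower by -0.99 ± 0.07 (adjusted p = 6.23e-11) (ratio of mean signals 0.504). Aqp9 was higher by 0.86 ± 0.10 (adjusted p = 2.31e-07), that is, nearer to vehicle. Gk was lower by -0.31 ± 0.08 (adjusted p = 0.0234). This call was lost under median centring (adjusted p = 0.799), quantile normalization (0.173), a fit of the 48 h arrays alone (0.148), averaged probe sets (0.0584) and an added fold change of 1.5. It was also lost without replicate 1 or 4 of the 200 µM group or replicate 2 or 5 of the 8 µM group (adjusted p = 0.0572 to 0.0918).

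Other dose differences did not pass. Aqp3 at 48 h was at -0.63 ± 0.23 (95% interval -1.11 to -0.16, adjusted p = 0.132), and at the same difference adjusted p was 0.00849 without replicate 4 of the 48 h vehicle group. Its 24 h difference had adjusted p = 0.058 without replicate 1 of the 200 µM group. Gk at 24 h was at -0.24 ± 0.08 (adjusted p = 0.134, and 0.0142 without the array that stood apart). Gpd2 was at -0.23 (interval -0.49 to 0.02) and -0.28 (-0.53 to -0.02) at 24 h and 48 h, and Gpd1 at -0.17 (-0.34 to -0.005) and -0.05 (-0.21 to 0.12). Aqp9 at 24 h was at 0.12 (-0.08 to 0.32).

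Within each treatment the 48 h wells were then set against the 24 h wells. Between 24 h and 48 h at 8 µM, Aqp7 rose by 1.43 ± 0.07 (adjusted p = 9.17e-16) and Aqp3 by 1.14 ± 0.23 (adjusted p = 6.35e-04), Aqp9 fell by 0.94 on the log2 scale (adjusted p = 7.99e-09) and Gpd1 by 0.30 (adjusted p = 0.00992). That is 4 of 6 genes, or 3 of 5 without Aqp3, where 13.4% of all genes passed. The call of Gpd1 was lost under median centring (adjusted p = 0.52), with averaged probe sets (0.306) and with the added fold change of 1.5. Gk (-0.16 ± 0.08, adjusted p = 0.253) and Gpd2 (0.04 ± 0.13, adjusted p = 0.91) did not pass at 8 µM. At 200 µM 2 of 6 passed, Aqp7 (1.14 ± 0.07, adjusted p = 1.43e-13) and Aqp3 (1.45 ± 0.23, adjusted p = 3.21e-05), or 1 of 5 without Aqp3, where 11.1% of all genes did. Gk and Gpd1 were at -0.23 and -0.18 there (adjusted p = 0.0791 and 0.189, and 0.00869 and 0.0332 without the vehicle array that stood apart).

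The vehicle wells moved as well, where 9.87% of all genes passed. Aqp7 was 0.46 ± 0.07 higher at 48 h (adjusted p = 5.6e-05) and Gpd1 was lower by -0.45 ± 0.08 (adjusted p = 2.37e-04), each with no overlap between times. Under median centring they were at 0.31 and -0.60 and did not pass (adjusted p = 0.136 and 0.0611), nor did they with the added fold change of 1.5. Aqp3 was 0.73 ± 0.23 higher (adjusted p = 0.0429), and 0.39 (adjusted p = 0.151) without replicate 4 of the 48 h group, at signals below the filter. Aqp9, Gk and Gpd2 were at -0.17, -0.12 and -0.16 (adjusted p = 0.314, 0.409 and 0.469), and without that array at -0.24, -0.01 and -0.12 (adjusted p = 0.0955, 0.94 and 0.681). So 3 of 6 genes passed, or 2 of 5 without Aqp3.

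Set against their own vehicle, 2 genes had an effect that differed between the times, by the test of the difference itself. The effect of 8 µM on Aqp7 was larger at 48 h by 0.98 ± 0.11 (adjusted p = 1.98e-07), and that of 200 µM by 0.69 ± 0.11 (adjusted p = 8.36e-05). The fall of Aqp9 at 8 µM was deeper at 48 h, by -0.77 ± 0.14 (adjusted p = 7.52e-04, and -0.61 with adjusted p = 0.142 under median centring), while at 200 µM the difference was -0.03 (95% interval -0.31 to 0.25). So 2 of 6 genes passed at 8 µM and 1 of 6 at 200 µM (2 and 1 of 5 without Aqp3), where 2.9% and 2.41% of all genes did. Aqp3 was at 0.41 (adjusted p = 0.618) and 0.72 (adjusted p = 0.321), and without the vehicle array that stood apart at 0.75 (adjusted p = 0.0553) and 1.06 (adjusted p = 0.00495). Gk, Gpd1 and Gpd2 lay between -0.11 and 0.27, with adjusted p-values of at least 0.258.

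**Figure D3:**
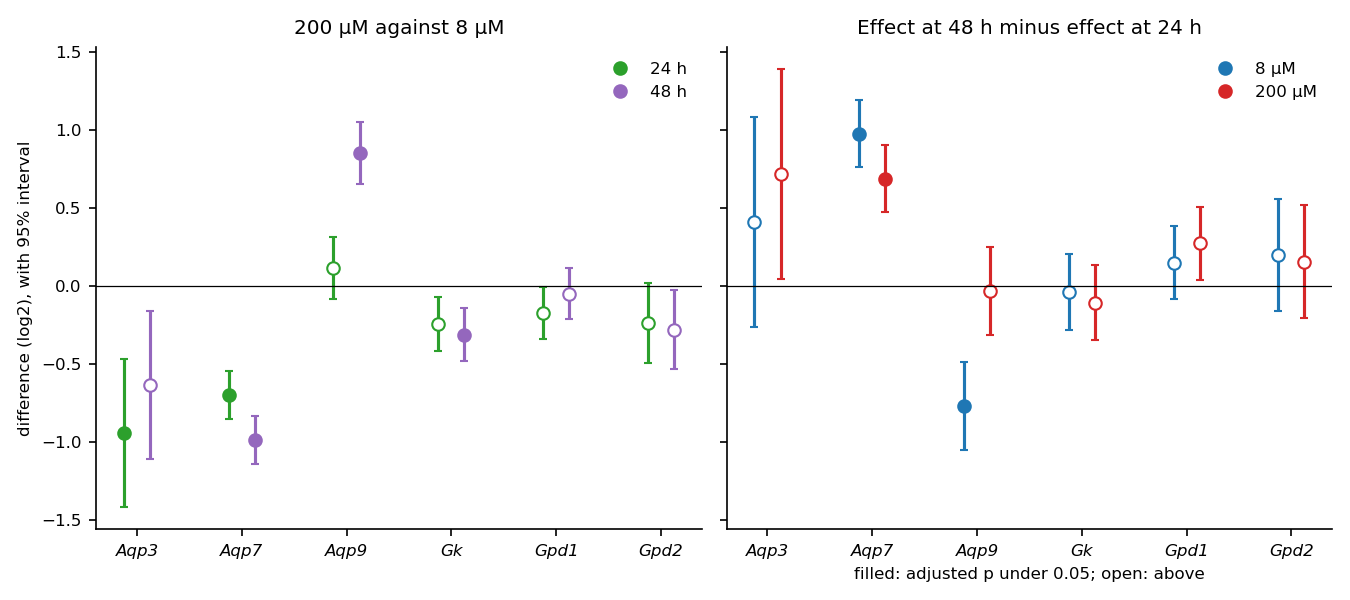
Left, log2 difference of 200 µM from 8 µM at each time; right, the effect at 48 h minus the effect at 24 h for each dose; lines are 95% intervals, and filled symbols have an adjusted p under 0.05. Aqp7 differs in both panels at both settings, and the intervals of Gk at both settings in the right panel span 0.

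The order of the group means was therefore not the same for all 6 genes. Aqp3 and Aqp7 ran upward from 24 h vehicle through 48 h vehicle, 200 µM at 24 h, 8 µM at 24 h and 200 µM at 48 h to 8 µM at 48 h. For Aqp7, neighbours in that order did not overlap in any pair, and for Aqp3 the vehicle groups overlapped each other, as did the 48 h doses. Aqp9 ran in the reverse order, from 908 ± 66.6 (SD, n = 5) at 8 µM and 48 h to 3034 ± 368 in 24 h vehicle. Its 200 µM wells at 48 h (1665 ± 232) overlapped both 24 h treated groups (1752 ± 121 and 1902 ± 157), and its vehicle groups overlapped each other. Gk and Gpd1 were highest at 8 µM and 24 h (13881 ± 519 and 55625 ± 1461) and lowest in 48 h vehicle. Gpd2 was at 4155 ± 412 and 4260.5 ± 288 at 8 µM and at 3526 ± 293 and 3531 ± 503 at 200 µM, with the times overlapping at each dose.

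Over all 30 arrays the genes whose log2 signal ran most like a member were found by Pearson correlation, a description in which the group means dominate. Gk was closest to Eci2, an isomerase of fatty acid oxidation (r = 0.995), to Hacl1 of peroxisomal α-oxidation (0.993) and to Pank1, a pantothenate kinase (0.992). Gpd2 was closest to Mlycd, malonyl-CoA decarboxylase (0.990), Ehhadh of peroxisomal β-oxidation (0.988) and Gk itself (0.988). The nearest to Gpd1 were Pctp, a phosphatidylcholine transfer protein (0.987), Hacl1 (0.986) and the peroxisomal protease Lonp2 (0.985). Aqp3 was nearest to Cpt1b, the muscle-type carnitine palmitoyltransferase (0.993), Aig1 (0.991) and the mitochondrial carrier Slc25a30 (0.989).

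Aqp7 and Aqp9 had other neighbours. Aqp7 ran with the serine protease Prss23 (0.989), the mitochondrial ribosomal gene Mrps18a (0.979) and Abhd5, the activator of adipose triglyceride lipase (0.973). All 3 had the larger rise at 8 µM, which picking them by this correlation favours. For Abhd5 the doses did not differ at 24 h (adjusted p = 0.0622, and 0.0192 without the array that stood apart). Prss23 was at 2.89 and 1.75 at 24 h and 3.83 and 2.53 at 48 h, for 8 and 200 µM. Aqp9 ran with Polg2, the accessory subunit of mitochondrial DNA polymerase (0.926), Cyp2f4 (0.922) and the phospholipid exporter Abcb4 (0.921). Among the members themselves r was 0.983 between Gk and Gpd1, 0.919 between Aqp3 and Aqp7, and -0.929 between Aqp7 and Aqp9. Each group's mean was then taken out, and r was taken over the 30 wells, the array that stood apart included. It was 0.811 for Gk with Gpd1, 0.559 for Aqp3 with Aqp7, and 0.474 for Aqp7 with Aqp9, the last of opposite sign to that over groups. The sign also turned for other pairs, among them Aqp3 with Aqp9 (0.547), Aqp3 with Gk (-0.421) and Aqp7 with Gpd1 (-0.46). Others kept it, such as Gk with Gpd2 (0.347). On the array that stood apart, Aqp3, Aqp7 and Aqp9 were the highest of their group and Gk and Gpd1 the lowest. Values of r without it were not computed.

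Aqp7 and Aqp3 are next to each other on rat chromosome 5 in RefSeq GRCr8, in the order Chmp5, Nfx1, Aqp7, Aqp3, Nol6 and Ube2r2. The 4 flanking genes, picked by position after the values were seen, did not pass in any contrast against vehicle. Their changes lay between -0.40 (Nfx1 at 8 µM and 48 h, adjusted p = 0.091) and 0.15.

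Of the other aquaporins, 5 of 9 listed genes were kept and 2 fell in each of the 4 contrasts. The share of all genes that fell was 13.8%, 13.1%, 18.9% and 17.1%. Aqp8, a channel of the canalicular and inner mitochondrial membranes, fell by 0.65 and 0.92 at 24 h and by 0.84 and 1.08 at 48 h (SE 0.07), and was lower at 200 µM than at 8 µM (-0.27 and -0.24, adjusted p = 0.0211 and 0.0314). Aqp11, an intracellular aquaporin, was at -0.73, -0.56, -0.54 and -0.40 (SE 0.12, adjusted p at most 0.0103). Aqp12a rose at 200 µM and 24 h (0.68 ± 0.25, adjusted p = 0.0399) and did not pass elsewhere (without the array that stood apart it passed at 8 µM and 24 h, at 0.60 with adjusted p = 0.00992). The median of the 5 was -0.04, 0.02, -0.54 and -0.40, beside -0.03, -0.02, -0.06 and -0.05 over all genes tested.

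Among the relatives of Gk and Gpd1, 3 of 5 listed genes were kept. Tkfc, the triokinase that phosphorylates dihydroxyacetone and glyceraldehyde, fell in all 4 contrasts, by 0.64 and 0.63 at 24 h and 1.18 and 1.06 at 48 h (SE 0.12). Gpd1l1, the Gpd1-like gene, fell at 48 h (-0.56 and -0.38, adjusted p = 0.00184 and 0.0377; at 200 µM -0.20, adjusted p = 0.182, without the array that stood apart). Pgp, a phosphatase that acts on glycerol 3-phosphate, rose at 8 µM and 48 h (0.44 ± 0.10, adjusted p = 9.64e-04), with -0.002 at 200 µM (adjusted p = 0.991). At 8 µM and 24 h Pgp was at 0.23 (adjusted p = 0.0989, and 0.0386 without the array that stood apart).

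The lipases and their partners, which free the glycerol of triglycerides, rose in most cases. Of 10 measured genes 7 rose and 1 fell in both 24 h contrasts, and 8 rose and 1 fell in both at 48 h. Mgll, which removes the last fatty acid from monoglycerides, rose by 1.80, 1.22, 2.07 and 1.47 (SE 0.09), and the hepatic triglyceride hydrolase Ces1d by 1.87, 1.36, 2.37 and 1.66 (SE 0.11). Abhd5 rose by 0.79, 0.58, 1.89 and 1.26 (SE 0.06), and lipoprotein lipase, Lpl, by 1.37, 0.88, 2.00 and 1.28 (SE 0.20). Of the 10, 4 were lower at 200 µM than at 8 µM after 24 h and 5 after 48 h, and 0 were higher. Without the array that stood apart, Abhd5 was also lower at 24 h (-0.21, adjusted p = 0.0192). So was Lipa at 48 h, named for that change (-0.18, adjusted p = 0.0192). The median of the 10 was 1.14, 0.79, 1.59 and 1.11.

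Steps that use glycerol 3-phosphate moved in both directions. Of 12 measured genes of glycerolipid synthesis, 3 rose and 2 fell at 8 µM and 24 h, and 5 rose and 2 fell at 48 h (at 200 µM, 3 and 3, then 6 and 2). Without the array that stood apart, 3 rose and 3 fell at 8 µM and 24 h, and 4 rose and 2 fell at 8 µM and 48 h. With all arrays, 11.1% and 11.6% of all genes rose at 8 and 200 µM after 24 h, and 16.7% and 16.8% after 48 h. Those that fell were 13.8%, 13.1%, 18.9% and 17.1% in the same order. Dgat1, which makes triglyceride from diglyceride, rose by 1.44, 1.08, 1.65 and 1.24, Dgat2 by 0.78, 0.58, 1.04 and 0.86, and the acyltransferase Agpat2 by 0.66, 0.42, 1.10 and 0.74. The phosphatidate phosphatase Lpin1 fell by 1.14, 0.97, 0.74 and 0.85. Gpam, which adds the first fatty acid to glycerol 3-phosphate and is named here with its values known, was at 0.14 and -0.10 at 24 h (adjusted p = 0.345 and 0.527) and rose at 48 h by 0.61 and 0.43 (adjusted p = 2.79e-06 and 5.07e-04).

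Glucose synthesis was read in a list of 9 measured genes, of which Pck1, Pck2 and Pc belong to the route from pyruvate, not from glycerol. At both doses 4 of the 9 rose and 3 fell after 24 h, and 5 rose and 2 fell after 48 h. In the 4 contrasts 11.1%, 11.6%, 16.7% and 16.8% of all genes rose, and 13.8%, 13.1%, 18.9% and 17.1% fell. Without the array that stood apart, 5 rose and 3 fell at 200 µM after 24 h and at both doses after 48 h. Pck1, the cytosolic carboxykinase, rose by 1.54 and 2.17 at 24 h and 1.34 and 1.95 at 48 h (SE 0.19), and Pc, pyruvate carboxylase, by 0.98, 0.52, 1.26 and 0.79 (SE 0.09). Fbp2, the muscle form of fructose bisphosphatase, rose by 2.07, 1.60, 2.05 and 1.54 (SE 0.35). Pck2, the mitochondrial carboxykinase, rose at 48 h (0.99 and 1.74, SE 0.26) and was at 0.07 and 0.67 at 24 h (adjusted p = 0.894 and 0.0576, the latter 4.43e-04 without that array). Slc37a4, the glucose 6-phosphate carrier of the endoplasmic reticulum, fell by 1.02, 0.63, 0.86 and 0.59, and is likewise named with its values known.

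The malate-aspartate shuttle, the other route for cytosolic reducing equivalents into mitochondria, changed by smaller amounts than Gpd1 and Gpd2. Of its 7 genes 1 rose in each 24 h contrast, 5 at 8 µM and 2 at 200 µM after 48 h, and 0 fell. Without the array that stood apart, 2 rose in the second 24 h contrast, and 2 at 8 µM and 1 at 200 µM after 48 h. The aspartate-glutamate carrier Slc25a13 rose by 0.33 and 0.58 at 8 µM and by 0.22 at 200 µM and 48 h (0.12, adjusted p = 0.0708, without that array). The median of the 7 was 0.02, -0.03, 0.17 and 0.13.

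**Figure D4:**
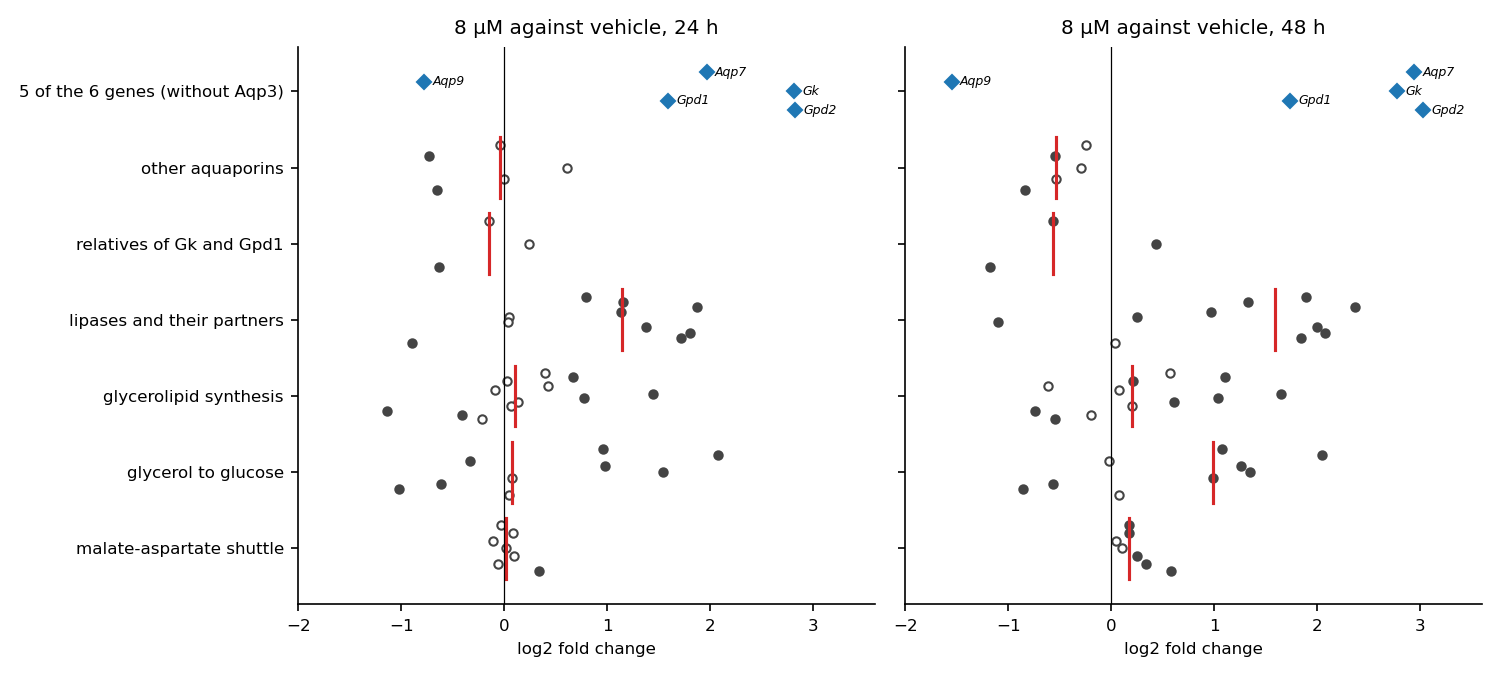
Log2 fold change at 8 µM against vehicle after 24 h (left) and 48 h (right) for 5 of the 6 genes (blue diamonds) and for the other genes of the pathway by list; filled circles have an adjusted p under 0.05 and red lines are list medians. Aqp3, at 6.92 and 7.33, lies off this scale, and the genes of the malate-aspartate shuttle lie between -0.11 and 0.58. The list labelled glycerol to glucose also holds Pck1, Pck2 and Pc, of the route from pyruvate.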

How the data were processed

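RNA of 30 wells (6 groups of 5) was read on 1 array each. The deposited values are intensity values that the authors made with MAS5, per the submitters' processing notes; the version and scaling target are not given in the sources used here. Their 2% trimmed mean was 1500.45 to 1500.7 on all arrays, so no further scaling was applied, and no detection calls were used. The number of wells limits the precision. Gene names come from the platform annotation of 2016: of 31099 probe sets 57 were controls, 20832 had 1 symbol, 436 several and 9831 none.

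The scale of analysis was log2(signal + 16). Probe sets with at least 5 arrays above 281.361, the 40th percentile over all values, were kept: 21282, of which 15629 had 1 symbol. The brightest of a gene by mean log2 signal was its main probe set, giving 11545 genes. All arrays were fitted in R 4.3.3 with limma 3.58.1 (its eBayes step with the trend option) with 1 mean per group and 11 two-sided contrasts, each adjusted by Benjamini-Hochberg, threshold 0.05. The 4 contrasts against vehicle share controls within a time. Second probe sets were tested in a fit of all 21282. The scripts were tested on simulated data. Promoters were searched, and plots made, with Python 3.11.15, pandas 2.3.3 and matplotlib 3.10.9.

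The 6 genes and the lists were chosen with earlier results of these data known. Named beside them are, for each of the 6, the 3 genes with the highest correlation over the 30 arrays, and up to 4 passing genes a list with the largest change; others are marked in the text. No 2 arrays held identical values. Replicate numbers follow runs of 6 consecutive array numbers, each of which holds every group once; the labels do not say that a run was a batch. The alternatives were median centring, quantile normalization, pseudocounts of 1 and 64, a filter at the 60th percentile (637) or none, averaged probe sets, every probe set, fits of fewer arrays, a block for the runs, no variance trend, array weights, leaving out each array, and an added fold change of 1.5 or more. Leaving out the array that stood apart for second probe sets and gene lists was added after the data were seen.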

Additional observations from a re-analysis of the deposited data

Results flagged for a closer look

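Of 54 groups of 5 wells (9 probe sets in 6 groups), 5 held a well whose gap to its nearest neighbour was more than 0.71 of the group's range; by chance about 1 in 20 groups would. In the second Gk probe set, replicate 3 of the 24 h vehicle group was low (signal 363, gap 0.723 of the range). In the main Gpd1 probe set, replicate 5 of the 200 µM group at 48 h was high (47375, 0.815). In the second Gpd1 probe set, replicate 5 was high at 48 h in the 8 µM group (5681, 0.732) and in the 200 µM group (5049, 0.801), and replicate 4 of the 48 h vehicle group was low (95.3, 0.96). That last well is on the array that stood apart.

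The effect of treatment differed between 24 h and 48 h, by the test of the difference in limma, for Aqp7 at 8 µM (0.976, adjusted p = 1.98e-07) and at 200 µM (0.688, adjusted p = 8.36e-05). It differed for Aqp9 at 8 µM (-0.77, adjusted p = 7.52e-04).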

How the results depend on the processing

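Of 2838 values of the 6 genes (66 under 43 alternatives), 2789 kept their side of the threshold, 32 no longer passed and 17 newly passed. Direction was compared only where the main value or the alternative passed, and 0 of those changed direction. Some values that passed in neither did change direction, such as Gpd1 between doses at 48 h (-0.046, with a highest value of 0.024). All 1032 against vehicle kept their direction and side of the threshold. The block for the runs of 6 arrays (replicate block) changed none of the 66 calls, with 6 genes called in each contrast against vehicle. With a pseudocount of 1, 1 of 6 genes differed between doses at 24 h (2 in the main analysis), and with 64 the effect of 200 µM differed between times for 2 (1). Median centring left 0 of 3 for vehicle over time (Aqp3, Aqp7 and Gpd1 lost) and 1 of 2 for the change of the 8 µM effect (Aqp9 lost), and the added fold change of 1.5 left 1 of 3 for vehicle over time. For 200 µM over time, fits of fewer arrays and array weights each gave 4 of 6 (2), and array weights gave 2 (1) for the change of its effect. Leaving out each array in turn gave 1 to 3 for the doses at 24 h, 2 to 4 at 48 h, 2 to 3 for vehicle over time, 2 to 4 for 200 µM over time and 1 to 2 for the change of its effect; the upper values for 200 µM came without replicate 4 of the 48 h vehicle group. The call of Aqp3 in vehicle over time was lost most often, and next that of Gk between doses at 48 h. The cause of these changes was not tested. Counts over all genes moved by over 1.5 times in each contrast under at least 1 alternative. For 8 and 200 µM against vehicle, 2870 and 2853 genes at 24 h ranged from 1031 to 3549 and 915 to 3571, and 4112 and 3905 at 48 h from 1637 to 4376 and 1396 to 4398. In the test of every probe set, 4090, 4000.0, 6064 and 5617 probe sets passed. Between doses, 349 genes at 24 h ranged from 39 to 750 and 553 at 48 h from 96 to 1146. Over time, 1139 genes in vehicle ranged from 278 to 1290.0, 1546 at 8 µM from 375 to 2347 and 1282 at 200 µM from 326 to 2120. For the change of effect, 335 genes at 8 µM ranged from 42 to 596 and 278 at 200 µM from 28 to 528. Signals of Aqp3 in vehicle wells are near the floor of the array, which limits the size of its change.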
